A study of Mus musculus with 7 samples.

Results

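Insulin and the insulin-like growth factors (IGFs) reach heart muscle through a small set of receptors, ligands and receptor-bound adaptors, and 10 genes of this set were followed here: Insr, Igf1r, Igf2r, Igf1, Igf2, Igfbp4, Irs1, Irs2, Grb10 and Grb14. They were chosen by name, and every non-control array probe whose accession is a RefSeq transcript of such a gene was taken, which gave 15 probes for the 10 genes of the 22911 that had a named probe. Of these genes, Insr, Igf1r, Igf2, Igfbp4 and Grb10 had 2 probes each and the rest had 1. All 15 probes were well above background on all 7 arrays, so each of them passed the filter on dim probes. The samples were heart apex RNA from 7 male C57Bl/6 mice aged 3 months, with 1 single-colour Agilent array per mouse. The 3 double knockout mice (DKO) carried a heterozygous MHC-mercremer transgene, a tamoxifen-activated recombinase driven in cardiomyocytes by the αMHC promoter, together with AKT1 and AKT2 alleles that were homozygous flox/flox, with loxP sites around exons 6 and 7 of AKT1 and exons 5 and 6 of AKT2. The 4 control mice were heterozygous for MHC-mercremer alone. Both groups received 5 daily doses of 500 µg hydroxytamoxifen and were sampled 10 days after induction, with no other treatment, so the transgene and the drug were shared by all 7 mice.

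When insulin binds its receptor Insr, or IGF1 and IGF2 bind the related receptor Igf1r, the receptor's tyrosine kinase phosphorylates the docking proteins Irs1 and Irs2, which recruit PI3 kinase and so switch on the Akt kinases. Grb10 and Grb14 are adaptors that bind the activated receptors and dampen their signal, Igf2r carries IGF2 to lysosomes for breakdown and lacks a kinase, and Igfbp4 is a secreted protein that holds IGFs away from their receptors. In many tissues Akt keeps FoxO transcription factors out of the nucleus, and FoxO factors are known to raise transcription of Insr and Irs2, a feedback from the end of the pathway to its start. The comparison of DKO with control hearts asks how the entry points of the pathway are expressed once Akt1 and Akt2 are deleted in cardiomyocytes.

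Values below are log2 of the processed spot signal, scaled to the 75th percentile of each array, and a difference is always DKO minus control on that log2 scale. Signals of different probes are not compared as levels. Of the tested probes, 4.40% passed an adjusted p of 0.05 (limma, two-sided, Benjamini-Hochberg over 30466 probes), 2.33% being higher and 2.07% lower in DKO. The probes on which the groups did not overlap made up 25.2%. Akt2 was lower on all 3 of its probes, by log2 differences of -0.68 to -2.29, while the Akt1 probes gave 0.17 and 0.47 (limma, adjusted p = 0.199 and 0.139). The positions of these probes against the loxP-flanked exons were not examined, so the Akt1 probes are no check of the labels. All 10 cardiomyocyte markers, from Myh6 to Mybpc3, were well above background on every array and 0 of them passed the test. Their summed log2 signal was 21.05 to 21.10 in control and 21.00 to 21.14 in DKO, with a median difference of -0.06. The sum is carried by the brightest markers. The groups did not overlap for Ryr2, Ttn and Actc1, at -0.38, -0.32 and -0.24, and overlapped for the other markers of the list. Control replicate 1 correlated at 0.984 to 0.987 with the other controls, which correlated at 0.992 to 0.994 with each other.

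Of the 15 probes, 5 rose and 1 fell in DKO hearts, against the shares of 2.33% and 2.07% over all probes. The rises were those of both Insr probes, both Igf1r probes and Irs1, and the fall was that of Grb14. The groups did not overlap on 10 of the 15 probes, against 25.2% of all probes tested. Of the 15, 12 were higher and 3 lower in DKO. The median difference was 0.28 over the 15 probes and -0.01 over all probes tested. The genes had been picked with earlier results of these hearts known, so these shares describe the set and test nothing about it.

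**Figure D1:**
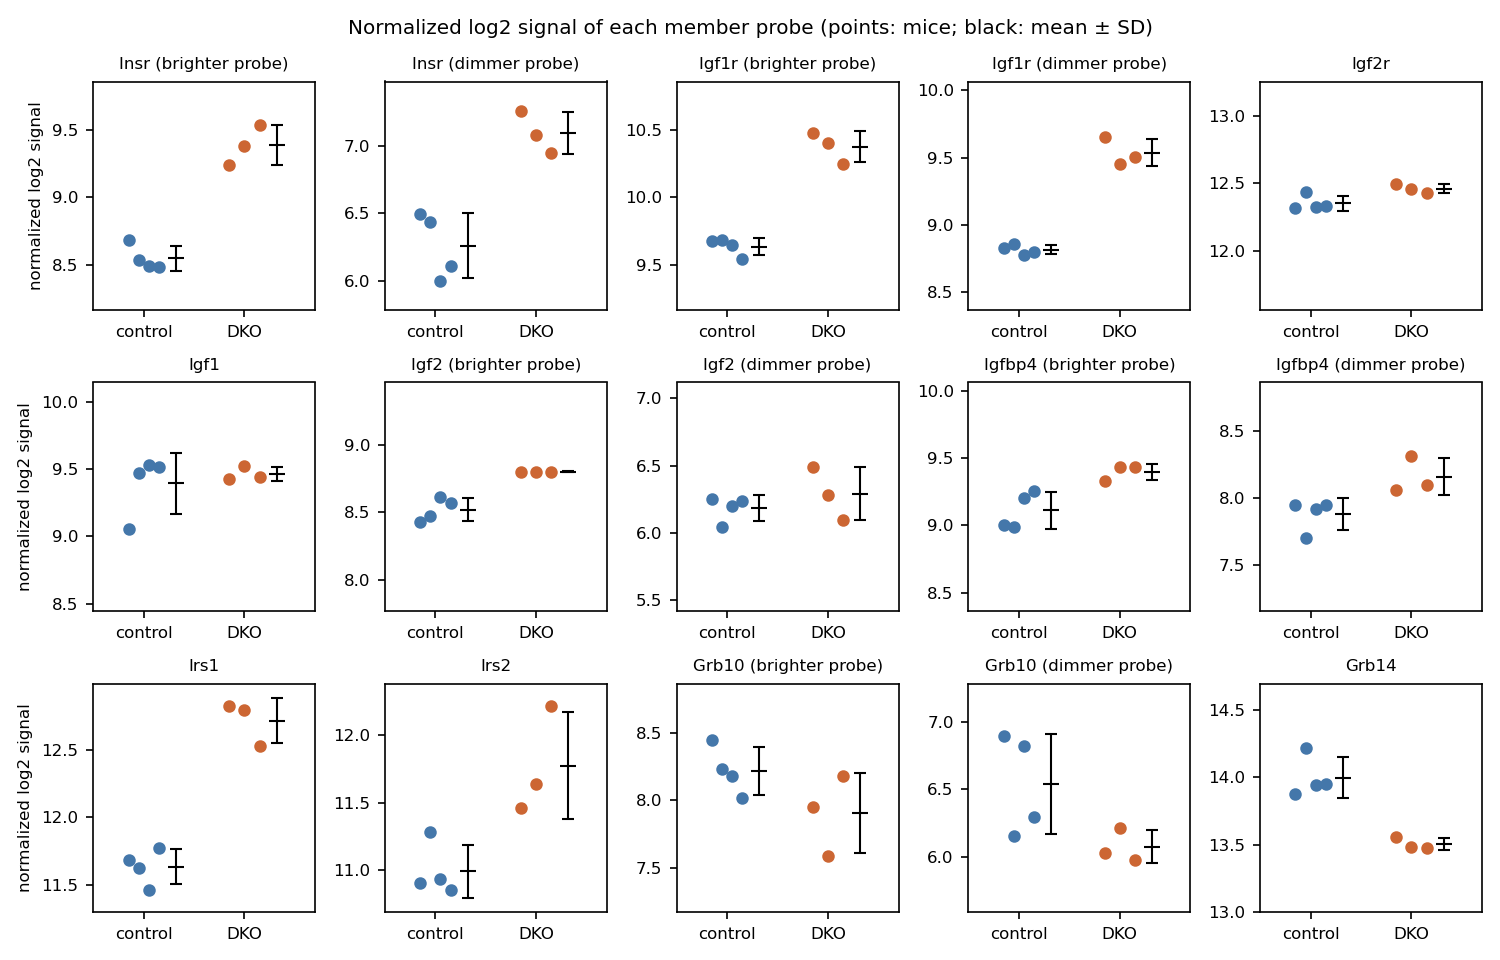
Normalized log2 signal (vertical axes, each spanning the same range) of the 15 probes in 4 control and 3 DKO mice, 1 point per mouse, with the mean ± SD in black. The DKO points of Insr, Igf1r and Irs1 lie above all control points, those of Grb14 lie below them, and those of Igf2r, Igf1 and Grb10 overlap the controls.

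The insulin receptor gene Insr rose in DKO hearts on both of its probes. Its brighter probe read 8.69, 8.53, 8.49 and 8.48 in the 4 controls and 9.24, 9.38 and 9.54 in the 3 DKO hearts. The lowest DKO heart was thus above the highest control. The difference was 0.84 ± 0.10 (SE, n = 4 and 3), which is 1.79-fold with a 95% interval of 1.52 to 2.10 (limma, adjusted p = 0.0107). The dimmer probe read 6.50, 6.44, 6.00 and 6.11 in controls and 7.26, 7.08 and 6.95 in DKO, again without overlap. Its difference was 0.84 ± 0.15 (limma, adjusted p = 0.0321), and the difference between the effects of both probes was 0.00 with a 95% interval of -0.46 to 0.47. The brighter probe passed with any single array left out. The dimmer probe passed without control replicate 1 or 2 but not without control replicates 3 and 4 or DKO replicates 1, 2 and 3, where limma gave adjusted p = 0.0643, 0.0923, 0.105, 0.0948 and 0.0690. With normexp background correction and 75th percentile scaling its difference was 0.47 (limma, adjusted p = 0.127), whereas with normexp and quantile normalization it was 0.52 and passed (limma, adjusted p = 0.0481). With slide row as a block it was 0.74 (limma, adjusted p = 0.0816). Without the filter on dim probes, which brings 56508 probes into the test, limma gave adjusted p = 0.0539 for the brighter probe and 0.113 for the dimmer.

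Igf1r, the receptor for IGF1 and IGF2 and the closest relative of Insr, rose by a similar amount. Its brighter probe read 9.67, 9.68, 9.64 and 9.54 in controls and 10.48, 10.40 and 10.25 in DKO. The controls lay close together and every DKO heart was above them. The difference was 0.74 ± 0.08 (SE), or 1.67-fold with a 95% interval of 1.46 to 1.92 (limma, adjusted p = 0.00992). The dimmer probe gave 8.83, 8.86, 8.78 and 8.80 in controls and 9.65, 9.46 and 9.51 in DKO, a difference of 0.72 ± 0.08 (limma, adjusted p = 0.00907). The effects of both probes differed by 0.02 with a 95% interval of -0.13 to 0.17. Both passed with any single array left out, and without the filter on dim probes the brighter probe had an adjusted p of 0.0539 by limma. The rise of Insr minus that of Igf1r was 0.10 with a 95% interval of -0.26 to 0.45 (exact permutation test, two-sided, p = 0.600 over 35 splits of the arrays). Igf1r and Igf2 lie on chromosome 7, as Akt2 does, with 325 tested genes between Igf1r and Akt2 and 887 between Igf2 and Akt2 in the RefSeq gene order of GRCm38.p6.

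Igf2r, the IGF2 clearance receptor, which is also the cation-independent mannose 6-phosphate receptor, did not pass the test. Its probe read 12.32, 12.44, 12.33 and 12.34 in controls and 12.49, 12.46 and 12.43 in DKO. Control replicate 2 lay within the DKO range, so the groups overlapped. The difference was 0.11 ± 0.07 (limma, adjusted p = 0.376), and its 95% interval of -0.06 to 0.27 holds rises of up to 1.21-fold. Igf1r rose by 0.64 more than Igf2r, with a 95% interval of 0.49 to 0.78 (exact permutation p = 0.0286, two-sided, the smallest these 7 arrays can give, and 0.143 after adjustment over the 5 such pairs of genes that were compared).

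The docking protein gene Irs1 had the largest difference of the set. It read 11.68, 11.62, 11.46 and 11.77 in controls and 12.83, 12.80 and 12.53 in DKO. The gap between the highest control and the lowest DKO heart exceeded the whole range of either group. The difference was 1.09 ± 0.11 (SE), or 2.12-fold with a 95% interval of 1.77 to 2.55 (limma, adjusted p = 0.00840), and it passed with any single array left out. Among the 30466 probes it ranked 77 by p, where the probes of Igf1r ranked 88 and 131 and the brighter Insr probe 146.

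Irs2, the other main docking protein of heart, gave high values in DKO but a wide spread. It read 10.90, 11.28, 10.93 and 10.85 in controls and 11.46, 11.64 and 12.22 in DKO. Every DKO heart was above every control, but DKO replicate 3 was far above the other two and control replicate 2 above the other controls. The difference was 0.78 ± 0.20 (limma, adjusted p = 0.0724), and its 95% interval of 1.25-fold to 2.37-fold includes the size of the Irs1 rise. It did not pass with any array left out (limma, adjusted p from 0.0649 to 0.164), and without DKO replicate 3 the difference was 0.56. A variance trend with the mean signal brought it past the threshold (limma, adjusted p = 0.0305). The effect on Irs1 minus that on Irs2 was 0.30 with a 95% interval of -0.50 to 1.10 (exact permutation, two-sided, p = 0.400), so a difference between both docking proteins was not shown.

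**Figure D2:**
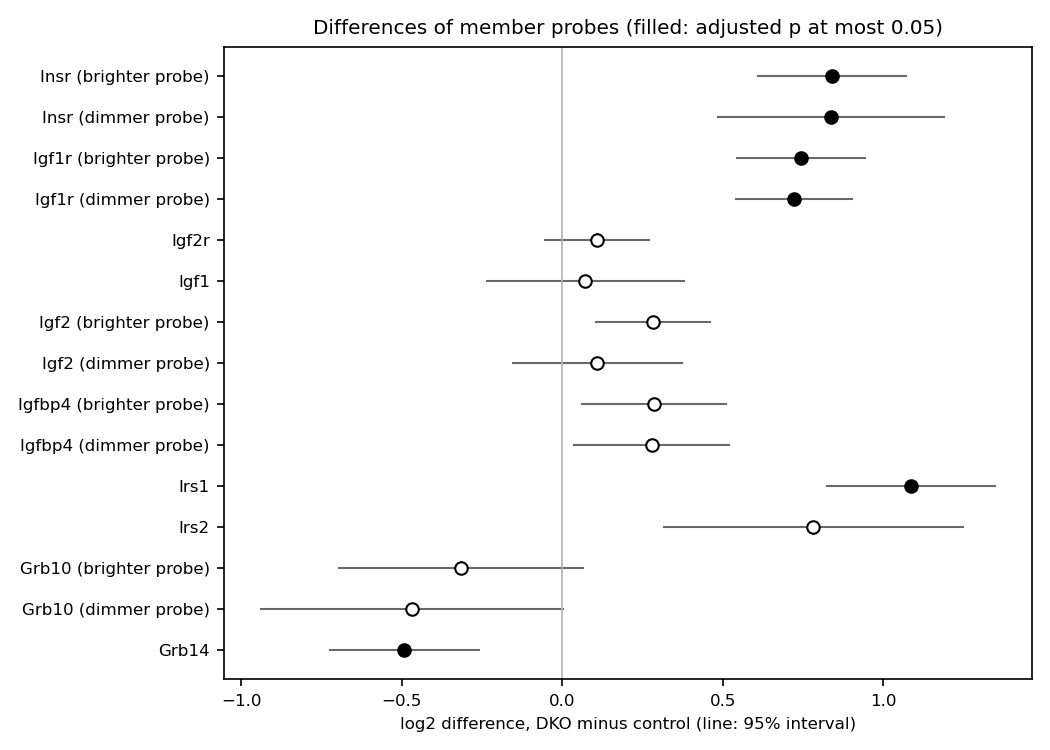
Log2 difference, DKO minus control, of each of the 15 probes (points) with its 95% interval from the limma fit (lines). Filled points passed an adjusted p of 0.05, and the pairs of probes of Insr, Igf1r and Igfbp4 lie at nearly the same difference.

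Because Irs1 and Igf1r rose together, and Grb14 fell, the 250 bases upstream of their RefSeq start sites were read, with those of Irs2 for comparison (RefSeq promoter table, build GRCm38.p6). Of the 10 genes 9, all but Insr, matched an entry, with 13 start sites in all. The sequences run 5′ to 3′ on the gene's own strand and end at the base before the start site. They were searched on both strands for GTAAACA, a core bound by FoxO factors. They were also searched for CAAAACA, the core of the insulin response element, and for GGGCGG, the GC box of Sp1-type factors. On the opposite strand CAAAACA reads as TGTTTTG. Capitals mark matches to any of the motifs, and where matches overlap or touch they appear as a single run of capitals.
Irs1 at chr1:82291440-82291689, minus strand, is shown for its pair of TGTTTTG matches.
Irs1: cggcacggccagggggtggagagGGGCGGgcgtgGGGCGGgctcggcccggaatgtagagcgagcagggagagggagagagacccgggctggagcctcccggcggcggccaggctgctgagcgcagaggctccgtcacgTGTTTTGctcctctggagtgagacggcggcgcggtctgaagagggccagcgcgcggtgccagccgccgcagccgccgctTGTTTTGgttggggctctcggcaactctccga
Irs2 at chr8:11008930-11009179, minus strand, is shown for its TGTTTTG match.
Irs2: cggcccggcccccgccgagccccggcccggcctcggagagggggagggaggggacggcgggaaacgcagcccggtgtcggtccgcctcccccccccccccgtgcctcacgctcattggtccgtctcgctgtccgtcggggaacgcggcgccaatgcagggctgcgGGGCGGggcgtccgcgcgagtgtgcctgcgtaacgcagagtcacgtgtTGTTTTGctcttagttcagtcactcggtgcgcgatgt
Igf1r at chr7:67952007-67952256, plus strand, is shown for its GC boxes and lack of the other motifs.
Igf1r: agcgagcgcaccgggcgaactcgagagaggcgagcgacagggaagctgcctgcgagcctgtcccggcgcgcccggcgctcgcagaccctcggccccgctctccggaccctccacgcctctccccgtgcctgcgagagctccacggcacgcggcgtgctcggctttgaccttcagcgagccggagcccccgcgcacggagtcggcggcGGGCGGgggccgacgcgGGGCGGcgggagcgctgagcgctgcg
Grb14 at chr2:65022767-65023016, minus strand, is shown as the gene that fell.
Grb14: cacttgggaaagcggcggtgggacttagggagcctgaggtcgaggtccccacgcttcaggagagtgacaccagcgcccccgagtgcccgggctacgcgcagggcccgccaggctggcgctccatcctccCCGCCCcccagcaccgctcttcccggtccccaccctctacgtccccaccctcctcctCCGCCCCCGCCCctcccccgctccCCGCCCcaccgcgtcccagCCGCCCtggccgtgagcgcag

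In Irs1 the TGTTTTG matches begin 111 and 32 bases upstream of the start site, and in Irs2 the match begins 37 bases upstream. Among the 13 windows of the set these were the 2 that held the motif, whereas 5.56% of 32851 windows of the same length in the whole table did. The core GTAAACA was found in 0 of the 13 windows and in 3.17% of all windows. That count covers this core alone, and FoxO binding to CAAAACA or to other sequences was not examined. GC boxes were found in 8 of the 13 windows and in 32.7% of all. The 8 windows were 66.0% to 81.2% G and C, where the median window was 52.4%, and the counts were not adjusted for this. The windows shown hold 28 CpG dinucleotides in Irs1, 34 in Irs2, 42 in Igf1r and 24 in Grb14, where the median window holds 6. A match describes the letters of the window and not a bound site, and these windows leave out all sequence farther upstream and inside the genes.

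Of the receptor-binding inhibitors, Grb14 fell and Grb10 did not pass the test. Grb14, which blocks the kinase of the activated insulin receptor, read 13.88, 14.22, 13.94 and 13.95 in controls and 13.55, 13.48 and 13.48 in DKO. The DKO hearts lay close together and below every control. The difference was -0.49 ± 0.10 (SE), or 1.41-fold lower with a 95% interval of 1.20 to 1.65 (limma, adjusted p = 0.0417). The call held without control replicate 2, but without control replicates 1, 3 and 4 limma gave adjusted p = 0.0504, 0.0838 and 0.102, and without DKO replicates 1, 2 and 3 adjusted p = 0.109, 0.122 and 0.119. With slide row as a block the difference was -0.57 (limma, adjusted p = 0.0553), and without the filter on dim probes adjusted p was 0.154.

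Grb10, the imprinted relative of Grb14, gave negative differences on both probes, and neither passed. The brighter probe read 8.45, 8.24, 8.18 and 8.02 in controls and 7.95, 7.59 and 8.18 in DKO, a difference of -0.32 ± 0.16 (limma, adjusted p = 0.273). DKO replicate 3 lay within the control range. The dimmer probe read 6.90, 6.16, 6.82 and 6.29 in controls and 6.03, 6.21 and 5.98 in DKO, a difference of -0.47 ± 0.20 (limma, adjusted p = 0.203). Here the controls fell into a higher and a lower pair, and DKO replicate 2 was above the lowest control. The effect on Grb10 minus that on Grb14 was 0.18 with a 95% interval of -0.36 to 0.71 (exact permutation, two-sided, p = 0.429).

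Neither ligand gene passed the test. Igf1, the main growth factor of the pathway in the adult, read 9.05, 9.47, 9.53 and 9.52 in controls and 9.43, 9.52 and 9.44 in DKO, and the DKO values lay inside the control range. The difference was 0.07 ± 0.13 (limma, adjusted p = 0.766), and without control replicate 1, whose value stood apart below the others, it was -0.04. The 95% interval over all arrays, -0.24 to 0.38, allows changes of up to 1.30-fold upward.

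Igf2, the imprinted fetal growth factor, read 8.43, 8.47, 8.61 and 8.57 in controls on its brighter probe and 8.80, 8.80 and 8.80 in DKO. All DKO hearts were above all controls, with a difference of 0.28 ± 0.08 (limma, adjusted p = 0.0826) that did not pass. The dimmer probe read 6.25, 6.04, 6.20 and 6.24 in controls and 6.49, 6.28 and 6.10 in DKO, with overlap and a difference of 0.11 ± 0.11 (limma, adjusted p = 0.581). The effects of both probes differed by 0.17 with a 95% interval of -0.13 to 0.47. Igf1 minus Igf2 differed between groups by -0.21 (95% interval -0.47 to 0.05, exact permutation, two-sided, p = 0.114).

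Igfbp4, the secreted IGF carrier, gave nearly equal differences on its probes. The brighter probe read 9.001, 8.988, 9.20 and 9.25 in controls and 9.33, 9.43 and 9.43 in DKO, without overlap and with a difference of 0.29 ± 0.09 (limma, adjusted p = 0.128). The dimmer probe read 7.95, 7.70, 7.92 and 7.95 in controls and 8.06, 8.31 and 8.10 in DKO, with a difference of 0.28 ± 0.10 (limma, adjusted p = 0.155). The groups were separate on both probes, as on 25.2% of all probes tested, and neither passed. Heart apex holds several cell types, and a difference in the share of a cell type cannot be told apart from a difference in RNA per cell. Beside these values, endothelial markers had a median difference of 0.26 over 11 of 11 tested markers (0 called, summed log2 signal 17.17 to 17.33 in control and 17.41 to 17.51 in DKO). Fibroblast markers had a median of 0.14 over 11 of 11 (0 called, sums of 17.59 to 17.63 and 17.70 to 17.87). Mural cell markers had a median of 0.32 over 11 of 11 (1 rose, Myh11, with sums of 16.56 to 16.76 and 16.65 to 16.79), and macrophage markers -0.02 over 13 of 13 (0 called, sums of 14.38 to 14.55 and 14.30 to 14.70). Each of these markers gave signal well above background in all 7 hearts, and their part in the differences was not tested. The sums are carried by the brightest markers. For mural cells the brightest marker, Acta2, gave -0.41, beside the median of 0.32 over the list.

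The arrays sat in 2 rows of a single slide, and the groups shared both rows. In the first row, which held control replicates 1, 3 and 4 and DKO replicate 3, the differences were 0.89 for Irs1, 0.99 and 0.74 for the Insr probes, 0.63 and 0.70 for the Igf1r probes and -0.45 for Grb14. In the other row, with control replicate 2 and DKO replicates 1 and 2, they were 1.19, 0.78 and 0.73, 0.76 and 0.69, and -0.70. The 6 called probes thus kept their direction in both rows. Irs2 gave 1.33 and 0.27, the widest gap between rows among the docking proteins and receptors.

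**Figure D3:**
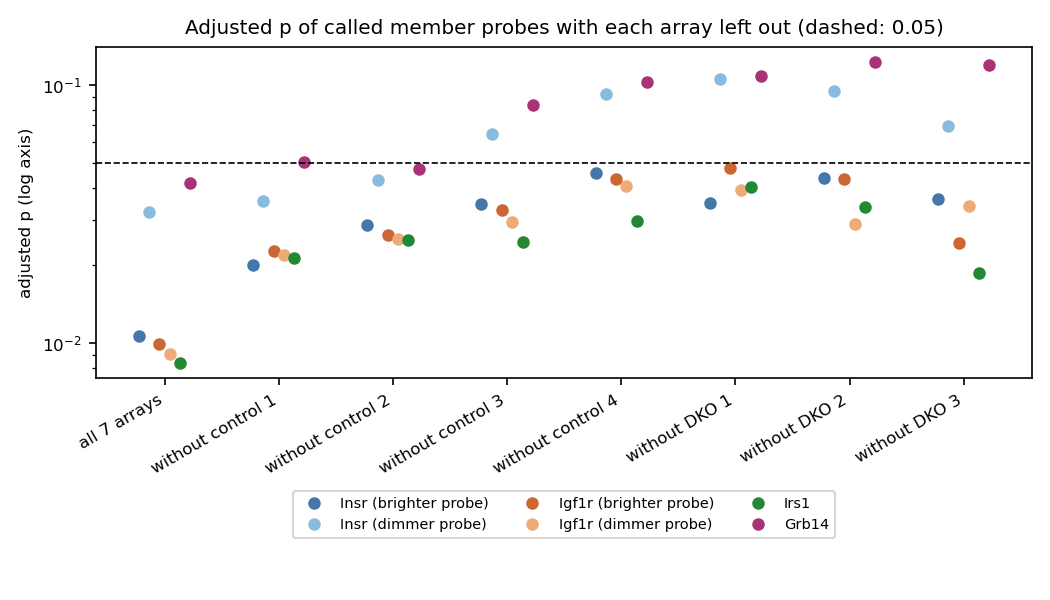
Adjusted p (log axis) of the 6 called probes with all 7 arrays and with each array left out in turn, with the dashed line at 0.05. Irs1, both Igf1r probes and the brighter Insr probe stay under the line in all 7 refits, with a highest value of 0.0476 for the brighter Igf1r probe, while the dimmer Insr probe and Grb14 cross it.

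Genes next to these in the pathway were read from 5 lists, each gene by its brightest kept probe. By that reading 4.54% of 23678 genes passed the threshold, 2.30% being higher and 2.24% lower, and the median difference over all genes was -0.02. An unadjusted p under 0.05 was reached by 25.4% of all these genes, the share against which the unadjusted counts of the lists are to be read. Of 35 tested adaptors and inhibitors that act close to the receptors, 1 rose and 0 fell (5 at an unadjusted p under 0.05), with a median of -0.03. The gene that rose was Socs3, an inhibitor that cytokines and insulin induce, at 0.39 ± 0.08 (limma, adjusted p = 0.0409). Socs3 passed in 0 of the 7 fits with an array left out, and its adjusted p was highest without DKO replicate 1 (limma, adjusted p = 0.116). The other 4 genes at an unadjusted p under 0.05 were lower in DKO and did not pass: the insulin receptor-related receptor gene Insrr at -0.63 ± 0.15, the adaptor gene Grb2 at -0.35 ± 0.09, the Ras exchange factor gene Sos1 at -0.28 ± 0.08 and the adaptor gene Sh2b2 at -0.26 ± 0.10 (limma, adjusted p = 0.0674, 0.0784, 0.0899 and 0.185). These 4 genes were named after their values had been seen. Insrr was dim, with means of 5.08 in control and 4.46 in DKO. It was well above background on all 4 control arrays but on 1 of the 3 DKO arrays. It thus reached the filter on dim probes through the controls, and its difference lies near the floor.

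Of 10 tested IGF binding proteins with their proteases and partners, 0 passed in limma (1 at an unadjusted p under 0.05), with a median of 0.17. The RNA-binding protein gene Igf2bp2 gave 0.38 ± 0.09 and Pappa, the protease that cleaves Igfbp4, 0.59 ± 0.34 (limma, adjusted p = 0.0684 and 0.325). Of 5 tested genes among other ligands of the insulin and relaxin family and insulin-degrading enzymes, 0 passed (2 at an unadjusted p under 0.05, median 0.30). The 2 with the smallest p were the endopeptidase Nrd1 at 0.32 ± 0.09 and the lysosomal protease Ctsd at 0.30 ± 0.08 (limma, adjusted p = 0.0830 and 0.0865). The insulin genes Ins1 and Ins2 did not pass the filter on dim probes. Of 18 genes for degradation and trafficking of receptors and docking proteins, 0 passed (5 at an unadjusted p under 0.05, median 0.10). Cav3, the caveolin of muscle, gave -0.30 ± 0.07 and Pcsk5, a proprotein convertase, 0.60 ± 0.15 (limma, adjusted p = 0.0563 and 0.0733).

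Grb10, Igf2 and Igf2r are imprinted, so other imprinted growth genes were read as a list. Of 15 tested, 0 passed in limma (2 at an unadjusted p under 0.05) and the median was 0.11. Impact gave 0.48 ± 0.12 and the cell cycle inhibitor Cdkn1c 0.35 ± 0.09 (limma, adjusted p = 0.0739 and 0.0758). H19 and Airn were added for their position after their values had been seen. H19, the noncoding RNA beside Igf2, gave 0.37 ± 0.16, and Airn, which is transcribed antisense to Igf2r, gave -0.37 ± 0.16 (limma, adjusted p = 0.217 and 0.208).

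**Figure D4:**
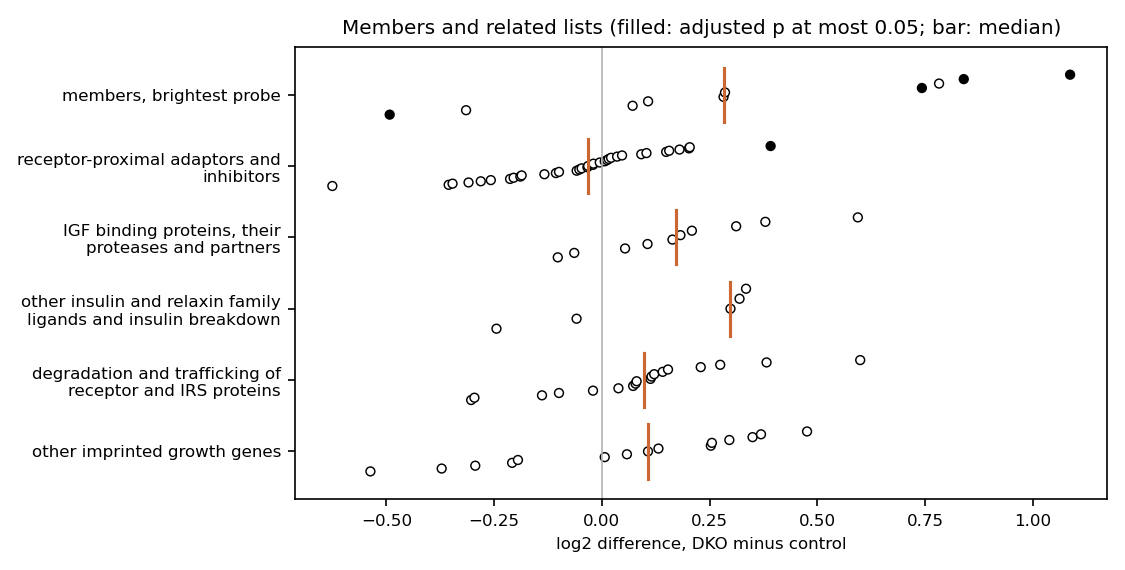
Log2 difference, DKO minus control, of the 10 genes by their brightest probe and of 5 lists of related genes (1 point per gene, filled where the adjusted p was at most 0.05, bar at the median). The filled points are Irs1, Insr, Igf1r and Grb14 in the top row and Socs3 in the row below it.

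The genes whose pattern over the 7 arrays was nearest to each called gene were found by the root mean square (RMS) difference of log2 values, each set to its control mean. Nearest to Irs1 were Bfsp2, Tram2 and Bdh1, at RMS differences of 0.11, 0.13 and 0.13, where the median gene was at 0.72. Nearest to Insr were Cbs, Crybg1 and Gbp6, at 0.09, 0.10 and 0.11, with the median gene at 0.57. Nearest to Igf1r were Synpo, Thbs4 and Arhgdig, at 0.04, 0.07 and 0.07, with the median gene at 0.50. Nearest to Grb14 were Olfr373, Zadh2 and Pstk, at 0.05, 0.06 and 0.07, with the median gene at 0.39. The nearest genes lie below the median gene by the way they were picked, so the medians give a scale and no test. Because values were set to the control mean alone, this measure favours genes with a similar DKO minus control difference. Whether these genes share more than that difference with the called genes was not tested.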

How the data were processed

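RNA from 7 mouse hearts was measured on Agilent arrays. Per the labels' protocols, 100 ng of total RNA was converted to cDNA and labelled with Cy3. The authors quantified the scans with Feature Extraction 12.0.3.1, and the deposited files hold the processed signal of each of 62976 spots as an intensity on a linear scale, per the file headers. A further table deposited by the authors gives 56745 probes as log2 values, and every column had a median of 0. These values matched quantile-normalized, probe-centred log2 processed signals (r from 0.99995 to 0.99998 across probes). How it was made is not given in the sources used.

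The log2 processed signal was scaled to each array's 75th percentile over all non-control spots (mean 9.14). Outlier spots were then left out, and spots of a probe were averaged. Accessions were named through a RefSeq table of GRCm38.p6 (32994 of 56605 probes matched). The arrays use mm9, so that table served for names and gene order alone, and the coordinates printed are those of the promoter windows, on GRCm38.p6. Probes were tested (30466) where 3 or more of the 7 arrays had them well above background and no value was missing, with limma 3.58.1 in R 4.3.3, group as the single term, two-sided, and Benjamini-Hochberg adjustment over all of them. Intervals come from that fit, and those of a difference between 2 probes from the pooled spread of the arrays. An array had 50.9% to 55.7% of its probes well above background and 0 saturated spots, and precision is limited by how few arrays there are. Each array is a separate mouse, per the labels.

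The genes, lists and tests were chosen with earlier results of these data known. Named genes are all 10 members with all probes, Akt1 and Akt2, the called genes of each list or its 2 genes with the smallest p, the 3 nearest patterns to each called gene, and tissue markers. From the list of adaptors 1 gene was left out and is not reported here. Alternatives covered the normalization, background correction (normexp with an offset of 50), filter, source of values, unit of the fit, variance model, array weights, blocks and each array left out. The marker lists of atrial, skeletal muscle, lymphoid, adipose, nerve, epicardial, and blood and liver cells gave 2 falls and 0 rises, 0 calls, 0 calls, 0 calls, 1 fall, 0 calls and 1 rise among 8, 4, 7, 2, 7, 2 and 5 tested genes. Adipoq and Plin1 of fat and Myh4, Myh1 and Myh2 of skeletal muscle did not pass the filter on dim probes.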

Additional observations from a re-analysis of the deposited data

Results flagged for a closer look

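The lowest or highest control stood apart from the other 3 on 3 of the 15 probes, judged by its gap to the nearest control over the range of the 4 controls. Chance marks about 1 in 20 groups in this way. The gap took up 0.873 of the range for Igf1, where control replicate 1 was low. It took up 0.863 for Igf2r, where control replicate 2 was high, and 0.863 for the dimmer Igfbp4 probe, where control replicate 2 was low.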

How the results depend on the processing

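Over all probes the count of calls was 1339, and 678 with normexp and the 75th percentile, 139 without a filter, 2480 with a trended variance, 2014 with array weights, 321 with slide row as a block and 218 to 1098 with 1 array left out. The 5 rises of the set became 2 without a filter, 3 with 1 probe per gene or the mean of a gene's probes (which count 10 genes in place of 15 probes), and 4 to 5 with 1 array left out. The fall of Grb14 gave 0 calls without a filter and with slide row as a block, and 0 to 1 with 1 array left out. The 1 call among the 5 lists became 0 with normexp and the 75th percentile, 2 with quantile normalization, with the filter on all 7 arrays and with the authors' values, 0 without a filter, 7 with a trended variance, 4 with array weights, 0 with slide row as a block and 0 to 1 with 1 array left out. Without a filter 56508 probes enter the fit, and the SE of the brighter Insr probe was 0.112 in place of 0.098. Why the counts moved was not tested for any setting. With the replicate number as a block, 2 probes were called over all, and 0 rises, 0 falls and 0 list genes. The replicate numbers were not taken as pairs. Same-numbered arrays deviated together at r = 0.12, -0.0049 and 0.04. Over all pairs of a control and a DKO array numbered 1 to 3, r ran from -0.157 to 0.12. Of the 3 DKO arrays, 2 correlated best with their own number, so these values do not settle whether the numbers mark pairs. Of 305 values of single probes, 1 changed sign: Igf1 without control replicate 1, at -0.042 from 0.071. The median over all probes stayed between -0.02 and 0.03 in every setting. With 3 and 4 arrays, differences near 0.28 such as those of Igf2 and Igfbp4 did not pass.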
